A study of Mus musculus with 605 samples.

Results

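Wild-type (WT) melanocytes and WT bulge stem cells (SCs) from dorsal skin of mice at postnatal day 56 (P56) were set side by side as single-cell transcriptomes. WT hair follicles (HFs) rest in telogen at this age. The melanocyte plate held 85 labelled cells and the bulge plate 92, of which 81 melanocytes and 83 bulge cells were kept, 164 of the 605 cells in the series. A kept cell had a summed TPM (reads per transcript length, relative to all transcripts of the cell) of at least 750000 with at most 20% of it in mitochondrial genes, and 2000 to 7000 genes above 0 in bulge cells or at least 1000 in melanocytes. For bulk RNA the study's methods describe bulge SCs as GFP+CD34+Pcad low cells of K14-H2B-GFP mice, in which the keratin 14 promoter drives a nuclear green reporter, and the melanocyte lineage as tdTomato+ cells of tamoxifen-treated Tyr-CreERT2;tdTomato controls. The sources read do not restate either sort for the single cells. Plates of mutant melanocytes, mutant bulge cells and WT myeloid cells, all of P56, were also used. The study gives its single mutant bulge cells as Tyr-NrasQ61K, a nevus model. The labels give no genotype beyond WT or Mut and name no mouse. Each population is therefore 1 sample, no test was possible, and lineage cannot be told apart from plate, sort or reporter line.

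Melanocyte SCs and bulge SCs are neighbours in the resting follicle. Bulge SCs are epithelial cells that rebuild the growing follicle, are tied to each other by desmosomes and to the basement membrane by hemidesmosomes, and are kept quiet by BMP signals and low WNT activity. Melanocyte SCs descend from the neural crest, depend on the transcription factor MITF and the receptor tyrosine kinase KIT, and give rise to the cells that pigment the hair. Follicle keratinocytes are known to make KIT ligand, endothelins and WNT proteins, which melanocytes can receive.

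The markers fitted melanocytes on the melanocyte plate and keratinocytes on the bulge plate. Dct, the dopachrome tautomerase of pigment synthesis, was detected (TPM of 1 or more) in 80 of 81 melanocytes, 98.8% with an exact Clopper-Pearson 95% interval of 93.3 to 99.97%, and in 10 of 83 bulge cells, 12% (5.93 to 21%). Its TPM ran from 0 to 30650 in melanocytes with a median of 10390, and from 0 to 9809 in bulge cells with a median of 0. Pmel, which forms the fibrils of the melanosome, was detected in 72 melanocytes and 10 bulge cells. Krt14, a basal keratin, was detected in 8 melanocytes (9.88%, 4.36 to 18.5%) and 80 bulge cells (96.4%, 89.8 to 99.3%). Krt15, a keratin of the resting bulge, was detected in 4 and 82 cells. By the marker set with the highest mean level, 76 of 81 melanocytes and 81 of 83 bulge cells were of their own lineage. The latter were 76 by the keratinocyte set and 5 by that of differentiating keratinocytes, both counted as own lineage. The set of bulge markers was not the highest in any bulge cell. If the single cells were sorted as the bulk samples were, Krt14, Cd34 and Cdh3 had a part in choosing the bulge cells and Tyr in choosing the melanocytes, and in that case their levels are no findings. Cd34 was detected in 8 of the 83 bulge cells. All intervals here cover counting error only.

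**Figure D1:**
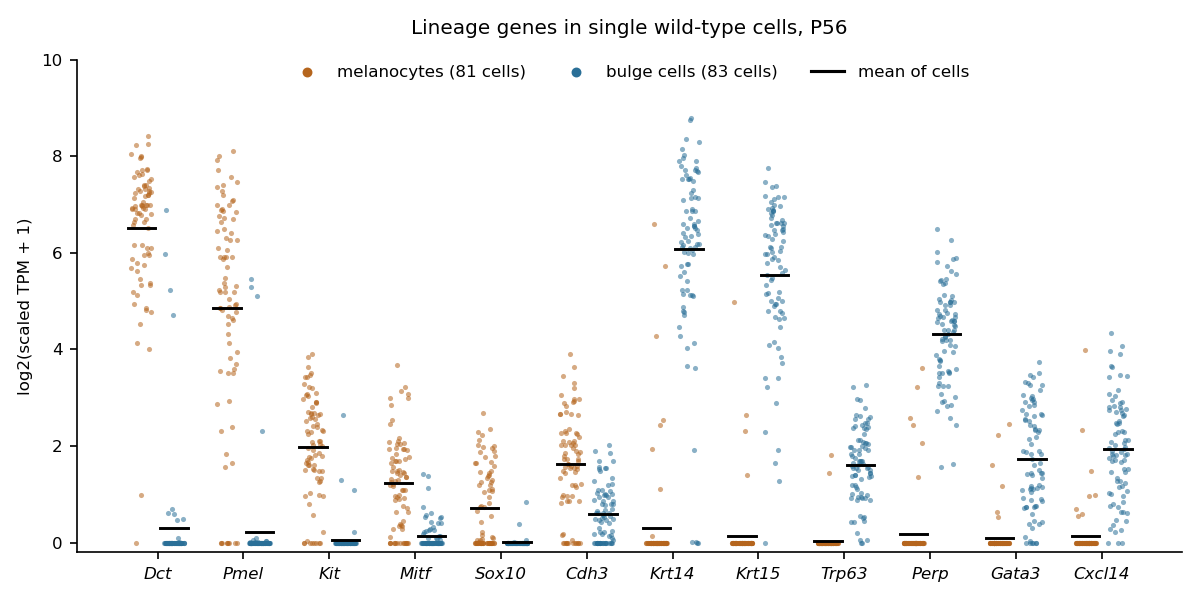
Level of lineage genes in each WT cell at P56, as log2(TPM scaled to 10000 per cell + 1) on the y axis, for 81 melanocytes and 83 bulge cells, where each point is 1 cell and each bar the mean of the cells. Dct and Pmel are high in melanocytes and at 0 in most bulge cells, Krt14, Krt15 and Perp show the reverse, and a few wells of each plate lie with the other population.

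A few wells held RNA of both lineages. Kit and Ednrb were detected together in the same 4 of 83 bulge wells. These wells held 9 to 10 of the 10 melanocyte markers at a summed 3341 to 15250 TPM, together with 9 to 10 of the 10 keratinocyte markers, and had 4407 to 6294 genes above 0. Without them the bulge mean of Dct was 2.79 TPM in place of 252 and that of Pmel 0.213 in place of 123. Tyr, Tyrp1, Mlana, Slc45a2, Ptgds and Enpp2 were detected in 0 of the other 79 bulge cells. The wells were picked by Kit, so the absence of Kit from these 79 follows from the choice. Ednrb, which was not used to pick the wells, was also detected in 0 of the 79. Mitf was still detected in 21 of these 79 cells. On the melanocyte plate, Dct was detected in all 8 wells with Krt14, at 2429 to 26120 TPM, and 3 of these wells also held Krt15. Any of the melanocyte markers was detected in 34 of 83 bulge cells, and any of the keratinocyte markers in 22 of 81 melanocytes. In the 59 melanocytes and 49 bulge cells with no marker of the other lineage, a restriction chosen after seeing the data, 104 genes were higher in melanocytes and 225 in bulge cells by the measure used next.

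Across genes, the number that set the populations apart depended on the scale used. Differences are between group means of log2(scaled TPM + 1), melanocytes minus bulge cells, over genes that reached a detection share of 10% in melanocytes or in bulge cells, which are called described. Of 10058 described genes, 94 were higher in melanocytes by 1 or more (0.935%) and 205 were higher in bulge cells by 1 or more (2.04%). The median difference was -0.03, and 61% of the differences were negative. Melanocytes had a median of 2233 genes above 0 (1387 to 6298) and bulge cells 4271 (2205 to 6816), with a median mitochondrial share of 7.56% and 4.50%. Of the genes past 1, 31.4% were higher in melanocytes. This split was 48.1% in 20 cells of each population matched on genes above 0, 47.6% for ratios of mean scaled TPM, 17.4% with a pseudocount of 0.1 and 10.6% for TPM as deposited. With a pseudocount of 0.1 the counts past 1 were 295 higher in melanocytes and 1401 higher in bulge cells. For TPM as deposited they were 454 and 3809. With these settings the median of all described genes was -0.27 and -0.71. TPM keeps no read depth, and its part in these differences was not tested.

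**Figure D2:**
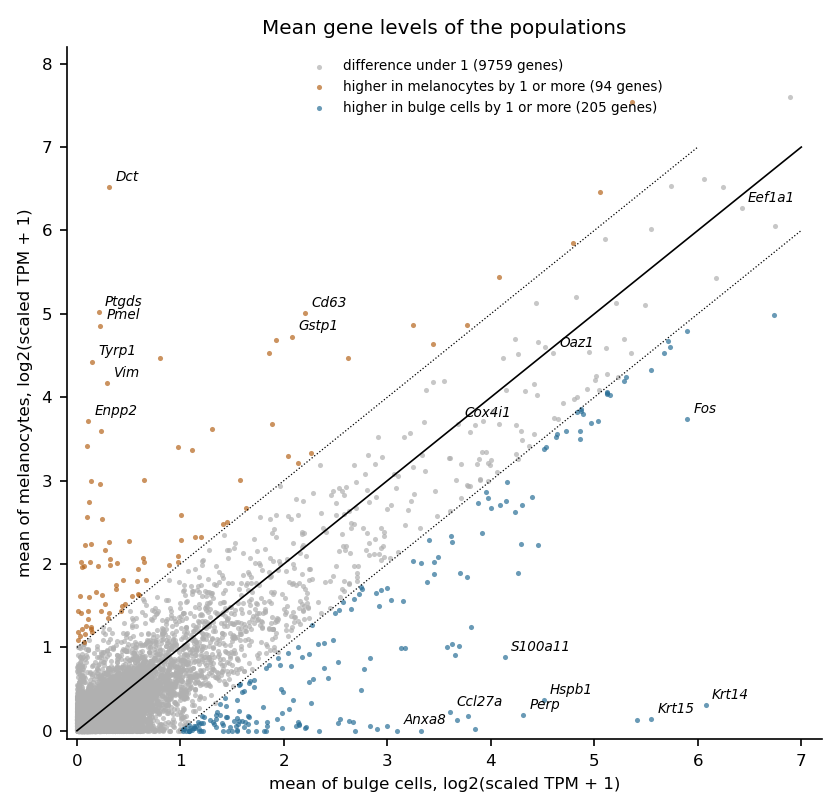
Mean level of each of the 10058 described genes in bulge cells (x axis) and melanocytes (y axis), both as mean log2(scaled TPM + 1), with dotted lines at a difference of 1. The 94 genes on the melanocyte side are led by Dct and the 205 on the bulge side by Krt14, while the other 9759 lie between the lines.

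The genes furthest toward melanocytes were led by Dct, which had a mean log2 level of 6.52 ± 1.39 (SD, n = 81 cells) in melanocytes and 0.31 ± 1.24 (SD, n = 83 cells) in bulge cells, a difference of 6.21. Ptgds, the synthase of prostaglandin D2, followed at 4.81, with a mean of 5096 and 127 TPM. Enpp2, which codes for autotaxin and yields lysophosphatidic acid, was detected in 79 of 81 melanocytes and 4 of 83 bulge cells. Mcoln3, a cation channel of endosomes and lysosomes, was detected in 78 and 4 cells. Vim, the intermediate filament of mesenchymal and crest-derived cells, ran from 0 to 5144 TPM in melanocytes with a median of 1719, and had a median of 0 in bulge cells. Cd63, a tetraspanin of late endosomes and melanosomes, was detected in 81 melanocytes and 75 bulge cells and had 3150 and 468 TPM. Sat1, which acetylates polyamines, had 3077 and 409 TPM, and Sqstm1, the autophagy receptor p62, 2512 and 380.4 TPM. Sat1 was detected in 66 bulge cells and Sqstm1 in 71. Sepp1, a selenium transport protein, differed by 3.67 and was detected in 77 melanocytes and 41 bulge cells. Tm4sf1, a small membrane protein, differed by 3.37 and was detected in 69 and 10.

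The WT myeloid plate of the same age shows which of these genes another cell type also carried. Vim had a mean of 2360 TPM and Sqstm1 of 2791 TPM in its 73 kept cells. Sepp1 had 1677 TPM there and was detected in 59 cells, Sat1 had 1181 TPM and was detected in 68, and Cd63 had 555 TPM and was detected in 35. Dct was detected in 0 of them, Ptgds in 0, Mcoln3 in 0 and Enpp2 in 1, where a count of 0 is compatible with shares up to 4.11%. This limit, and those given beside other counts of 0, takes 3 cells of the total and covers counting error only.

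The genes furthest toward bulge cells were led by 3 keratin genes. Krt14 had a mean log2 level of 0.31 ± 1.14 (SD, n = 81 cells) in melanocytes and 6.08 ± 1.87 (SD, n = 83 cells) in bulge cells. Krt15 (-5.41) and Krt5 (-5.29), the partner of Krt14, came next. Hspb1, a small heat shock protein, had 2652 TPM in bulge cells and 106 TPM in melanocytes. Perp, a desmosomal membrane protein and p53 target, ran from 171 to 8017 TPM in bulge cells with a median of 1863, and was detected in 6 of 81 melanocytes. No bulge cell was without Perp. Fxyd3, a regulator of the sodium pump, was detected in 83 bulge cells and 8 melanocytes. Sfn, the epithelial 14-3-3 sigma, differed by -3.55, and the calcium-binding S100a11 and S100a6 by -3.25 and -2.75. Col17a1, the transmembrane collagen of hemidesmosomes, ran from 10 to 1905 TPM in bulge cells and was detected in 2 melanocytes. In WT myeloid cells S100a11 had a mean of 2323 TPM and S100a6 of 2537 TPM, against 1892 and 1559 TPM in bulge cells. Hspb1 had 499.5 TPM and Sfn 19.7 TPM in myeloid cells. Krt14, Krt15, Krt5, Perp, Fxyd3 and Col17a1 were detected in 0 of the 73 myeloid cells.

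Some genes at this end were not detected in melanocytes or nearly so. Anxa8, an annexin, was detected in 73 of 83 bulge cells at a mean of 1309 TPM, and Ly6d, a surface protein of keratinocytes, in 50 at 1958 TPM. Both were detected in 0 of 81 melanocytes, a count compatible with shares up to 3.70%. Lgals7, an epithelial galectin, was detected in 80 bulge cells and 3 melanocytes, and Urah, an enzyme of uric acid breakdown, in 81 and 2.

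Some of the most abundant transcripts lay close together. Eef1a1, which brings tRNA to the ribosome, had a mean of 7008 TPM in melanocytes and 7925 TPM in bulge cells, a difference of -0.16. Oaz1, an inhibitor of polyamine synthesis, had 2167 and 2176 TPM. Cox4i1, a subunit of cytochrome oxidase, had 1218 and 1130 TPM, and Atp5b, a subunit of ATP synthase, 1303 and 1259 TPM. The differences of Actb (0.20), Tpt1 (0.07), Gas5 (-0.22) and H2-D1 (-0.06) were also within 0.25, the limit by which all these genes were picked. In the matched cells H2-D1 was at 0.81, Gas5 at -0.75 and Actb at 0.28, and the others stayed within 0.25. In the mutant plates H2-D1 was at 1.66, Actb at -0.83, Gas5 at -0.73, Tpt1 at 0.57 and Atp5b at -0.28. Eef1a1, Oaz1 and Cox4i1 stayed within 0.25 there. H2-D1 shares sequence with other class I genes and Eef1a1 with processed copies, so the assignment of their reads is uncertain.

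Genes of pigment synthesis and melanosomes had the highest list median. Of 28 described, 9 were higher in melanocytes by 1 or more (32.1%), 25 were positive, and the median difference was 0.59. Tyrp1 (4.28), a melanosomal enzyme, Mlana (2.86), which assists melanosome maturation, and Gpnmb (2.63), a relative of Pmel, were among them. Tyr, the rate-limiting enzyme of melanin synthesis, ran from 0 to 1301 TPM in melanocytes with a median of 197. It was detected in 56 melanocytes, and Dct was detected in all of these. Myo5a (1.48), the motor that carries melanosomes, also passed 1. A melanocyte had a median of 14 of the 32 listed genes (4 to 21) and a bulge cell 5 (1 to 20). The 3 negative members, Mreg (-0.34), Bloc1s2 (-0.23) and Rab38 (-0.06), serve the transport and building of organelles.

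The start sites of the pigment enzymes are shown because their genes stood far apart between the populations. The M-box core, TCATGTG, known as a binding sequence of MITF and containing the E-box CATGTG, was searched on both strands in the 250 bases before each RefSeq start (GRCm38.p6). It was found for 5 of 26 pigment genes with an entry (19.2%; Tyr, Tyrp1, Dct, Slc24a5 and Hps1) and for 3.72% of all 27025 genes. Mlana and Pmel had no entry. The stretches are Tyr at chr7:87493513-87493762 (minus strand), Tyrp1 at chr4:80833963-80834212 (plus strand) and Dct at chr14:118052247-118052496 (minus strand), each ending at the base before the start of the first exon, with the M-box core on either strand in capitals.
Tyr: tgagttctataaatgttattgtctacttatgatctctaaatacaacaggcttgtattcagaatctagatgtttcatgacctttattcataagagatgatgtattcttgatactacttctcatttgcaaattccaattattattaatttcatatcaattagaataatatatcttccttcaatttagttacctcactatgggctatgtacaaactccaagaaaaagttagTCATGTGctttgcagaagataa
Tyrp1: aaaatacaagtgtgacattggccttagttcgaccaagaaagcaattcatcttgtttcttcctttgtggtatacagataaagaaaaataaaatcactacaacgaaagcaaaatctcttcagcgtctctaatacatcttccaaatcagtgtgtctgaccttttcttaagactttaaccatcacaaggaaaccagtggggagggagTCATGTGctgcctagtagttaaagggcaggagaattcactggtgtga
Dct: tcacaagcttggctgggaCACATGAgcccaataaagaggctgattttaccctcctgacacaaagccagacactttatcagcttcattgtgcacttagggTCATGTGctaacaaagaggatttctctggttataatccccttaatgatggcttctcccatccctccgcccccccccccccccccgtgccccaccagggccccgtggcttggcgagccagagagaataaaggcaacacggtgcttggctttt
Relative to the start, the motif begins at position -22 in Tyr, -47 in Tyrp1, and -151 and -232 in Dct, where the copy farther from the start reads on the opposite strand. Of 11 keratin genes with an entry 1 held the M-box core (Krt10, 9.09%). A match describes letters and not a binding site.

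Transcription factors of the melanocyte and neural crest lineage were mostly higher in melanocytes, 14 of 16 described, with 2 past 1 (12.5%) and a median of 0.35. Mitf, the central regulator of melanocytes, ran from 0 to 1014 TPM in melanocytes with a median of 127, and from 0 to 145 TPM in bulge cells with a median of 0. It was detected in 81.5% (71.3 to 89.3%) and 30.1% (20.5 to 41.2%) of cells. The ranges overlapped, and the difference was 1.11, or 0.84 in the matched cells. Bhlhe41, a repressor of the clock family, had 154 and 9.96 TPM. Sox10 and Pax3, crest factors that act upstream of Mitf, were detected in 58% and 54.3% of melanocytes and in 4.82% and 2.41% of bulge cells. Mitf and Sox10 were both detected in 38 of 81 melanocytes, and neither in 6. Ets1 (0.79) and Zeb2 (0.69) followed. The negative members were Snai2 (-0.27), a repressor of epithelial genes detected in 9.88% of melanocytes and 50.6% of bulge cells, and Lef1 (-0.24), a WNT effector.

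Transcription factors of the follicle epithelium were higher in bulge cells for 27 of 31 described, 4 of them by 1 or more (12.9%), with a median of -0.28. Trp63, whose product p63 maintains stratified epithelium, ran from 0 to 777 TPM in bulge cells with a median of 186, and was detected in 81 bulge cells and 2 melanocytes. Gata3, a factor of the inner root sheath, was detected in 77 bulge cells and 6 melanocytes. Ovol1 (-1.18), an epithelial repressor, was detected in 40 bulge cells and 0 melanocytes. In the matched cells Gata3 was at -0.96 and Ovol1 at -0.77, short of 1, while Trp63 was at -1.39. The classical bulge factors were sparse. Sox9 was detected in 43.4% of bulge cells and 13.6% of melanocytes, Lhx2 in 27.7% and 4.94%, and both together in 15 bulge cells. Nfatc1, which holds bulge SCs in quiescence, had 33.8 TPM in bulge cells and 56.5 TPM in melanocytes (0.08).

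Receptors known from melanocytes were led by 3 genes, the only members past 1 of 20 described (15%; median 0.14). Ednrb, an endothelin receptor, ran from 0 to 1832 TPM in melanocytes with a median of 302 (1.98). Adgrg1, an adhesion G protein-coupled receptor, ran from 0 to 1940 TPM with a median of 364 (1.95). Kit, the receptor of stem cell factor, ran from 0 to 1228 TPM with a median of 276 (1.92). Kit and Ednrb were detected in 90.1% and 86.4% of melanocytes, together in 65 of 81. In bulge cells both were detected only in the 4 wells with RNA of both lineages, which were picked by Kit. Adgrg1 was detected in 43.4% of bulge cells. Trpm1 (0.97), a cation channel, Gpr137b (0.79), a lysosomal protein, and Gpr143 (0.47), a melanosomal receptor, followed. Mc1r, the melanocortin receptor, was detected in 11 of 81 melanocytes and in 0 of 83 bulge cells, a count compatible with shares up to 3.61%. Fgfr1 (-0.45) and Axl (-0.42), receptor tyrosine kinases for fibroblast growth factors and Gas6, were on the bulge side.

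Receptors known from follicle epithelium were higher in bulge cells for 27 of 30 described, 3 by 1 or more (10%), with a median of -0.24. These were Sdc4 (-1.96) and Sdc1 (-1.58), heparan sulfate proteoglycans that bind growth factors, and Fgfr2 (-1.10), the receptor of keratinocyte growth factors. Sdc4 was at -1.04 in the matched cells. Fgfr2 was detected in 81.9% of bulge cells and 2.47% of melanocytes, and Egfr, the epidermal growth factor receptor, in 60.2% and 2.47%. Cd44, the receptor of hyaluronan and osteopontin, stood out from the list. It was detected in 77.8% (67.2 to 86.3%) of melanocytes and 78.3% (67.9 to 86.6%) of bulge cells, at a mean of 231 and 58.4 TPM (0.80).

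Secreted factors lay mainly on the bulge side. Of 35 described growth factors, cytokines and chemokines, 7 were higher in bulge cells by 1 or more (20%), none was higher in melanocytes by 1 or more, and the median was -0.39, or -0.15 over the same genes in the matched cells, the basis of every list median given for them. Ccl27a, a skin chemokine for T cells, ran from 0 to 17880 TPM in bulge cells with a median of 2079, and near-identical copies make its counting uncertain. Cxcl14, a chemokine of epithelium, was detected in 80 of 83 bulge cells and 8 of 81 melanocytes. Gas6, a ligand of TAM receptors, was detected in 90.4% and 8.64%, and Ptn, a heparin-binding growth factor, in 73.5% and 4.94%. Hbegf (-1.15), an EGF receptor ligand, and Igfbp3 (-1.11), an IGF-binding protein, came next, and were at -0.81 and -0.44 in the matched cells. The members furthest toward melanocytes were the angiopoietin-like genes Angptl2 (0.60) and Angptl4 (0.32).

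**Figure D3:**
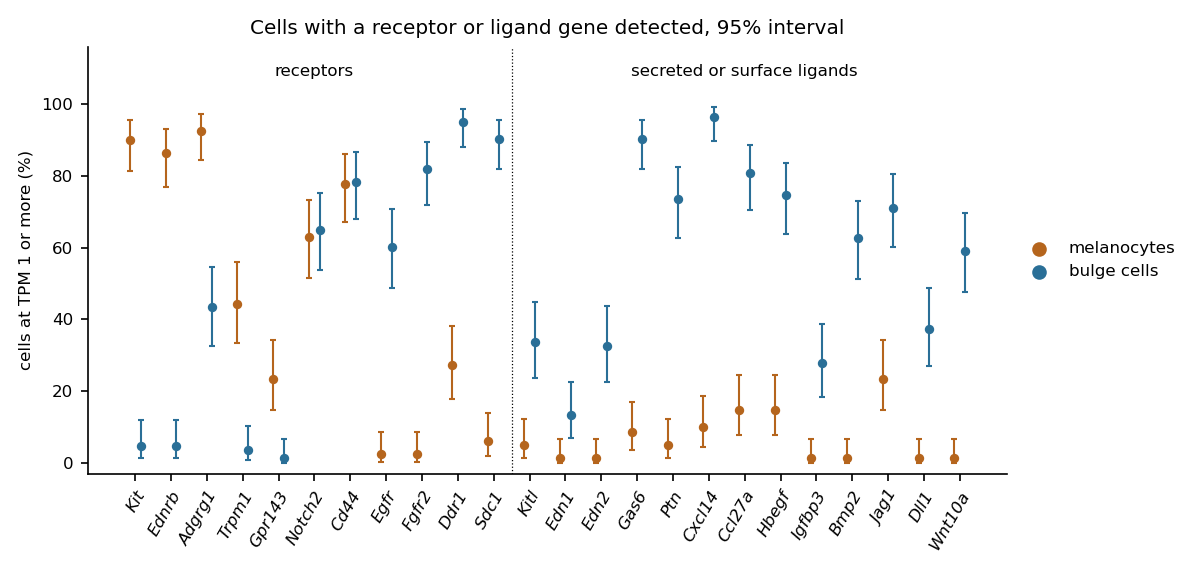
Share of cells with a receptor or ligand gene at TPM 1 or more (y axis, %), in 81 melanocytes and 83 bulge cells, with points for shares and bars for exact Clopper-Pearson 95% intervals. Kit and Ednrb are at 90.1% and 86.4% of melanocytes and 4.82% of bulge cells, and Cd44 is at 77.8% and 78.3%. The ligand genes plotted are a selection, each with the higher share in bulge cells. Angptl2 and Angptl4, which differed toward melanocytes, are not plotted.

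Among 33 ligand and receptor pairs, both genes were described in 17. In 3 of these the ligand was detected in a larger share of bulge cells and the receptor in a larger share of melanocytes. In 12 both were detected in a larger share of bulge cells, and in 2 both in a larger share of melanocytes. A bulge cell had a median of 4271 genes above 0 and a melanocyte 2233. How many of all described genes had the larger share in bulge cells was not counted. The first kind were Kitl with Kit, Edn1 with Ednrb and Edn2 with Ednrb. Kitl, which codes for stem cell factor, was detected in 33.7% (23.7 to 45%) of bulge cells and 4.94% of melanocytes. Edn2 was detected in 32.5% (22.7 to 43.7%) and 1.23%, and Edn1 in 13.3% and 1.23%. The second kind included Bmp2 with Bmpr1a, Jag1 with Notch2, and Hbegf with Egfr. Bmp2 was detected in 62.7% of bulge cells and 1.23% of melanocytes, and Jag1, a Notch ligand, in 71.1% and 23.5%. For Notch2 the shares were close, 65.1% and 63%. The homophilic adhesion genes Cdh3 and Cadm1 made up the last kind, where Cdh3 may have had a part in choosing the bulge cells. Sorted by mean TPM instead, a choice made after seeing the data, the 3 kinds held 10, 4 and 2 pairs, and in 1 pair, Pros1 with Tyro3, the ligand was higher in melanocytes and the receptor in bulge cells. Bmpr1a, at 21.2 TPM in melanocytes and 11.3 TPM in bulge cells, and Notch2, at 25.1 and 6.94 TPM, were among the receptors with the larger share in bulge cells and the higher mean in melanocytes. Edn3 and Spp1, listed as ligands of Ednrb and Cd44, were detected in 0 cells of both populations.

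In the WNT pathway 25 of 33 described genes were negative, with a median of -0.07, yet the 2 members past 1 were higher in melanocytes (6.06%). Dkk3, a divergent member of the Dickkopf family, ran from 0 to 2849 TPM in melanocytes with a median of 452, and from 0 to 471 TPM in bulge cells with a median of 0. Ctnnb1, which codes for beta-catenin, had 515 and 187 TPM (1.07, and 0.84 in the matched cells). Among the ligand genes, Wnt10a was detected in 59% of bulge cells and 1.23% of melanocytes, Wnt7b in 43.4% and 1.23%, and Wnt3 in 45.8% and in 0 melanocytes. Sostdc1 (-0.66) and Wif1 (-0.39), secreted antagonists, were on the same side. Axin2, a target of canonical WNT signalling, was detected in 19.8% of melanocytes and 21.7% of bulge cells.

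In the BMP and TGF-beta pathway 2 of 27 described genes were higher in bulge cells by 1 or more (7.41%), with a median of -0.05. The ID genes, whose products block bHLH factors and which respond to BMP, differed in direction. Id1 was detected in 65.1% of bulge cells and 9.88% of melanocytes (-1.78), whereas Id2 (0.77) and Id3 (0.62) had the higher level in melanocytes. Tgfbi (-1.78), a secreted adhesion protein, was at -1.07 in the matched cells. The ligand genes Bmp2 (-0.60), Bmp4 (-0.34) and Bmp7 (-0.32) were on the bulge side. Of 12 described genes of MAPK feedback and output none passed 1, and the median of -0.04 was -0.01 over the same genes in the matched cells and 0.01 over the genes described in those cells. Phlda1 (0.51) and Dusp4 (0.47), a MAPK phosphatase, lay furthest toward melanocytes, and Spry1 (-0.52), a feedback inhibitor of receptor tyrosine kinases, furthest toward bulge cells.

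Desmosome genes differed widely. Of 10 described, 4 were higher in bulge cells by 1 or more (40%), with a median of -0.82. After Perp (-4.12) these were Pkp3 (-2.08), Jup (-1.93) and Dsc3 (-1.48), which code for plakophilin 3, plakoglobin and desmocollin 3. Dsp, whose product links desmosomes to keratin, was detected in 91.6% of bulge cells and 2.47% of melanocytes. A melanocyte had a median of 0 of the 13 listed genes and a bulge cell 7. Of 22 described hemidesmosome and basement membrane genes 2 passed 1 on the bulge side (9.09%; median -0.33, or -0.12 in the matched cells), namely Col17a1 (-2.77) and Lamb3 (-1.02), a chain of laminin 332. Itga6 and Itgb4, which form the hemidesmosomal integrin, were detected in 86.7% and 91.6% of bulge cells and in 16% and 6.17% of melanocytes. Nid1, a basement membrane linker, was detected in 15 melanocytes and 0 bulge cells.

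Epithelial keratins followed the same order, with 4 of 10 described past 1 on the bulge side (40%; median -0.67), Krt14 among them. Krt17 (-2.57), a keratin of follicle epithelium, was the lowest after Krt14, Krt15 and Krt5. Krt10 and Krt1, keratins of differentiating epidermis, were detected in 57.8% and 19.3% of bulge cells. Of 19 described tight and gap junction genes 3 passed 1 on the bulge side (15.8%; median -0.10), namely Gja1 (-1.50), which codes for connexin 43, F11r (-1.10), a junctional adhesion molecule, and Cldn1 (-1.10), a claudin. F11r and Cldn1 were at -0.96 and -0.74 in the matched cells. Gjb2, which codes for connexin 26, lay furthest toward melanocytes at 0.38.

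Cadherins and other adhesion molecules were found on both sides. Of 27 described, 1 was higher in melanocytes by 1 or more (3.70%) and 4 in bulge cells (14.8%), and the median of 0.05 was -0.11 with a pseudocount of 0.1. Cdh3, which codes for P-cadherin, had 258 TPM in melanocytes and 56.2 TPM in bulge cells, and was at 0.60 in the matched cells. If the bulge cells were sorted as Pcad low, like the bulk samples, this difference of Cdh3 is no finding. Ncam1, a neural adhesion molecule, was detected in 77.8% of melanocytes and 4.82% of bulge cells, and Cdh2, which codes for N-cadherin, in 29.6% and 2.41%. Cdh19, a cadherin of Schwann cell precursors, was detected in 24 melanocytes and 0 bulge cells. Cdh1, whose product E-cadherin joins melanocytes to keratinocytes, was shared. It was detected in 50.6% (39.3 to 61.9%) of melanocytes and 84.3% (74.7 to 91.4%) of bulge cells (-0.30). Icam1 (-1.52), the tetraspanin gene Cd9 (-1.38) and Epcam (-1.10) were on the bulge side, with Icam1 at -0.53 and Epcam at -0.82 in the matched cells. Of 14 other integrin and adaptor genes none passed 1, and the median of -0.02 was 0.05 in the matched cells. The kindlin genes lay at its ends, Fermt2 at 0.81 and Fermt1 at -0.89.

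Glial and neural crest genes were positive for 11 of 16 described, 3 of them past 1 (18.8%; median 0.22). Vim and Tspan10 (1.42), a tetraspanin, were among them. Tspan10 was detected in 66.7% of melanocytes and 2.41% of bulge cells. Fabp7, a fatty acid binding protein of glia, was detected in 22 melanocytes and 0 bulge cells. Stmn1 (-0.66), which destabilises microtubules, lay furthest toward bulge cells. Cdh19 and Fabp7 are also Schwann cell markers, and 1 melanocyte had its highest mean level for that set.

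**Figure D4:**
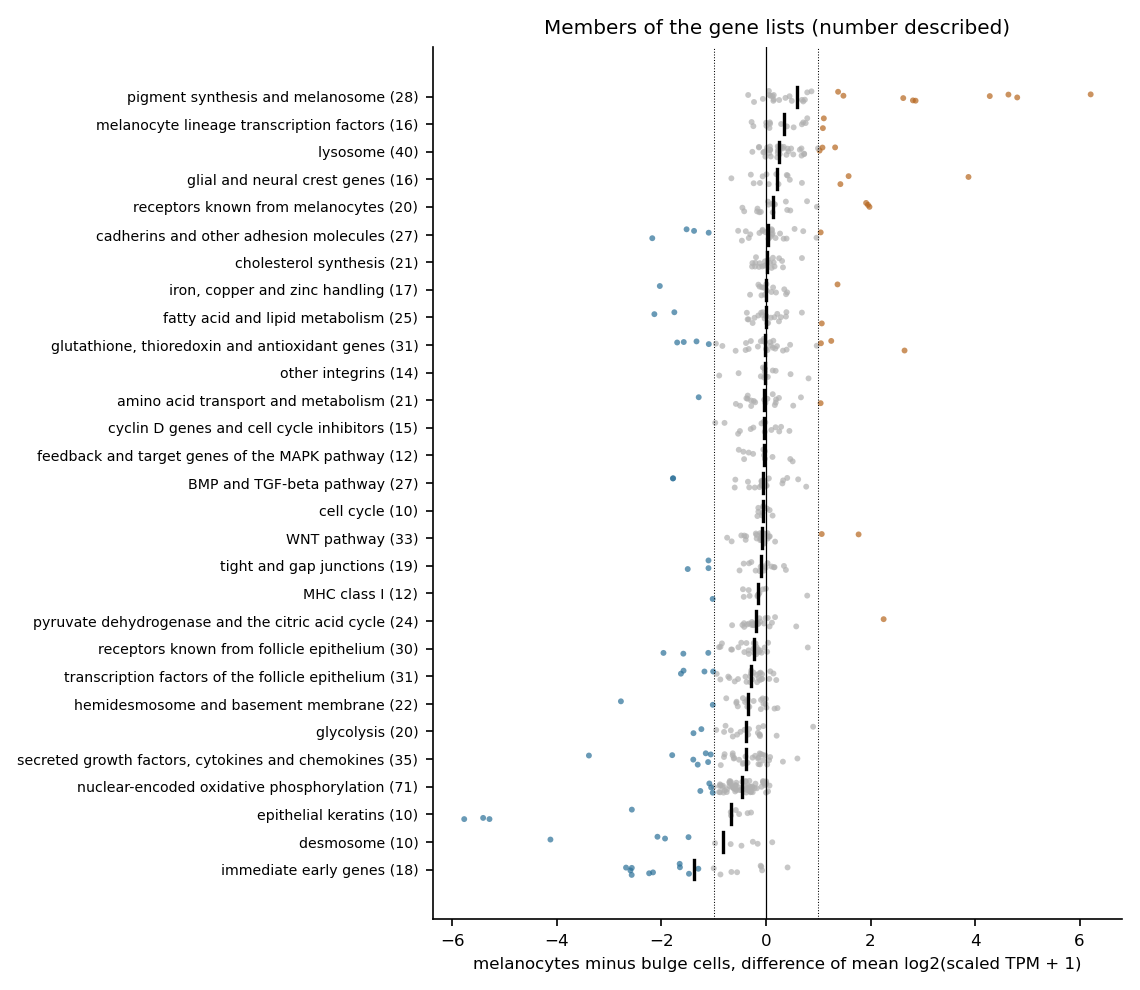
Difference of mean log2(scaled TPM + 1), melanocytes minus bulge cells, for the described members of each gene list, where each point is 1 gene and black marks the list median. Medians run from -1.38 for immediate early genes to 0.59 for pigment genes.

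Genes of glycolysis and oxidative phosphorylation were mostly on the bulge side, 18 of 20 and 66 of 71 described. Of 20 described glycolysis genes 2 were higher in bulge cells by 1 or more (10%; median -0.37), Tpi1 (-1.39) and Ldha (-1.24). Ldhb, the other main lactate dehydrogenase chain, lay on the melanocyte side (0.90). Of 24 genes of pyruvate dehydrogenase and the citric acid cycle 18 were negative and 1 passed 1 on the melanocyte side (4.17%), and the median of -0.19 was 0.11 in the matched cells and 0.05 for ratios of mean scaled TPM. This gene was Idh2, the mitochondrial isocitrate dehydrogenase, with 0 to 4976 TPM and a median of 966 in melanocytes, and 0 to 959 TPM and a median of 103 in bulge cells. Its difference was 2.25, against 0.58 for Sdha, the next gene. Of the nuclear-encoded genes of oxidative phosphorylation 4 were past 1 on the bulge side (5.63%), with a median of -0.45, or -0.12 for ratios of mean scaled TPM. Atp5e (-1.26) and Ndufb8 (-1.08), subunits of ATP synthase and complex I, were the lowest.

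Lipid genes were divided. Of 25 described genes of fatty acid and lipid metabolism 1 passed 1 on the melanocyte side (4.0%) and 2 on the bulge side (8.0%), with a median of 0.00 that was 0.11 in the matched cells. Gpx4, which removes lipid peroxides, had 1062 TPM in melanocytes and 406 TPM in bulge cells. Apoe, a lipid carrier, had 3717 and 12490 TPM (-1.75). Ucp2, a mitochondrial carrier, was detected in 33.3% of melanocytes and 96.4% of bulge cells (-2.13), but was at -0.38 in the matched cells. None of 21 cholesterol synthesis genes passed 1, and their median of 0.03 was -0.18 with a pseudocount of 0.1. Insig1 (0.69), which restrains sterol synthesis, lay furthest toward melanocytes.

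Among 31 described glutathione, thioredoxin and antioxidant genes 3 passed 1 on the melanocyte side (9.68%) and 4 on the bulge side (12.9%), with a median of -0.02 that was 0.07 in the matched cells. All 3 on the melanocyte side were glutathione transferase genes, Gstp1 (2.65), Mgst1 (1.25) and Gstm1 (1.05). Gstp1 had 3335 and 363 TPM, and may share reads with its near copy Gstp2. On the bulge side were the peroxiredoxin genes Prdx6 (-1.70) and Prdx2 (-1.33), Gpx1 (-1.57), a glutathione peroxidase, and Cbr2 (-1.09), a carbonyl reductase. In the matched cells Prdx6 was at -0.94, Prdx2 at -0.85 and Cbr2 at -0.84.

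Amino acid and metal genes had 1 member past 1 in each direction. Of 21 genes of amino acid transport and metabolism (4.76% each way; median -0.03, or 0.05 in the matched cells), Glul, glutamine synthetase, was detected in 75.3% of melanocytes and 33.7% of bulge cells. Phgdh, the first enzyme of serine synthesis, was detected in 8.64% and 84.3%. Of 17 iron, copper and zinc genes (5.88% each way; median 0.01, or -0.13 with a pseudocount of 0.1), Ftl1, the ferritin light chain, had 4329 TPM in melanocytes and 2004 TPM in bulge cells. Atox1, a copper chaperone, had 111 and 595 TPM.

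Lysosome genes were positive for 34 of 40 described, 3 past 1 (7.50%), with a median of 0.26. These were Atp6v1b2 (1.32) and Atp6v0c (1.08), subunits of the proton pump that acidifies lysosomes, and Ctsz (1.03), a cathepsin. Atp6v0c had 952 TPM in melanocytes, 337 TPM in bulge cells and 1234 TPM in WT myeloid cells. MHC class I genes were negative for 11 of 12, 1 past 1 (H2-Q7, 8.33%), with a median of -0.16 that was 0.11 in the matched cells. B2m, the common light chain, was the exception at 6306 and 4675 TPM.

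Cell cycle genes had the same median count per cell in both populations. Of 20 listed, 10 were described and none passed 1 (median -0.06), and a cell of either population had a median of 2 detected, with 0 to 10 in melanocytes and 0 to 20 in bulge cells. Top2a, a topoisomerase of dividing cells, was detected in 2.47% of melanocytes and 12% of bulge cells. Of 15 cyclin D genes and cell cycle inhibitors none passed 1, and the median of -0.04 was 0.11 in the matched cells. Cdk4 (-0.97) and Ccnd2 (-0.79), which drive the exit from G1, lay furthest toward bulge cells, and Rbl2 (0.45), a quiescence factor of the RB family, furthest toward melanocytes. Cytosolic ribosomal protein genes were negative for 76 of 76, 36 past 1 (47.4%), with a median of -0.98.

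Immediate early genes, which respond quickly to stimulation, had the lowest list median. Of 18 described, 10 were higher in bulge cells by 1 or more (55.6%), and the median of -1.38 was -0.60 in the matched cells. There it was no longer the lowest, with keratins at -0.71, desmosome genes at -0.61 and ribosomal protein genes at -0.93. Fos, a subunit of AP-1, ran from 0 to 24190 TPM in melanocytes with a median of 1295, and from 0 to 32900 TPM in bulge cells with a median of 7039. Egr1, a zinc finger factor, had medians of 16.7 and 1400 TPM. Their ranges overlapped. Ier2 (-2.68), Zfp36 (-2.59), whose product destabilises mRNA, and the phosphatase gene Dusp1 (-2.57) were the other members below -2.5. Klf6 (0.41) was the 1 positive member.

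The mutant plates of P56 gave the same contrast in other cells. They held 84 kept mutant melanocytes and 89 kept mutant bulge cells, and share no cell with the WT plates. The study gives the mutant bulge cells as those of a nevus model, which expresses activated Nras under a tyrosinase promoter. The labels name no model for the mutant melanocytes. Of the 94 genes higher in WT melanocytes by 1 or more, 90 had the same sign in the mutant plates and 66 were past 1 there. Of the 205 higher in WT bulge cells, 185 had the same sign and 80 were past 1 there. Another 3 of these were past 1 in the opposite direction. Over all 10565 genes described in the mutant plates, 136 were higher in mutant melanocytes by 1 or more and 200 in mutant bulge cells. Agreement in sign over all described genes was not counted. Lineage genes kept their direction, with Dct at 7.05, Pmel at 4.21, Vim at 4.01, Krt15 at -4.54, Perp at -3.86 and Trp63 at -1.53. Krt14 was at -2.85 and Anxa8 at -0.66, both nearer to 0 than in the WT plates. Adgrg1, at 1.95 in the WT plates, was at 0.26, and Ptn, at -1.31, was at -0.09. Cxcl14 (-3.35), Gja1 (-3.68) and Ucp2 (-4.44) were further toward bulge cells. Gjb2 (-2.51), Fabp5 (-1.42) and Id3 (-0.67), positive in the WT plates, were negative here.

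Among the lists, the median of the immediate early genes was 0.27 in the mutant plates and that of MHC class I genes 0.36. That of the iron, copper and zinc genes was -0.06, against 0.01 in the WT plates. The medians of these lists had the opposite sign in the WT plates. The median of glycolysis genes kept its sign but was at -0.06, against -0.37 in the WT plates. The medians of pigment genes (0.85), lysosome genes (0.48), desmosome genes (-0.59) and ribosomal protein genes (-0.99) kept theirs. Genotype and plate cannot be told apart in these differences between the pairs of plates.

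**Figure D5:**
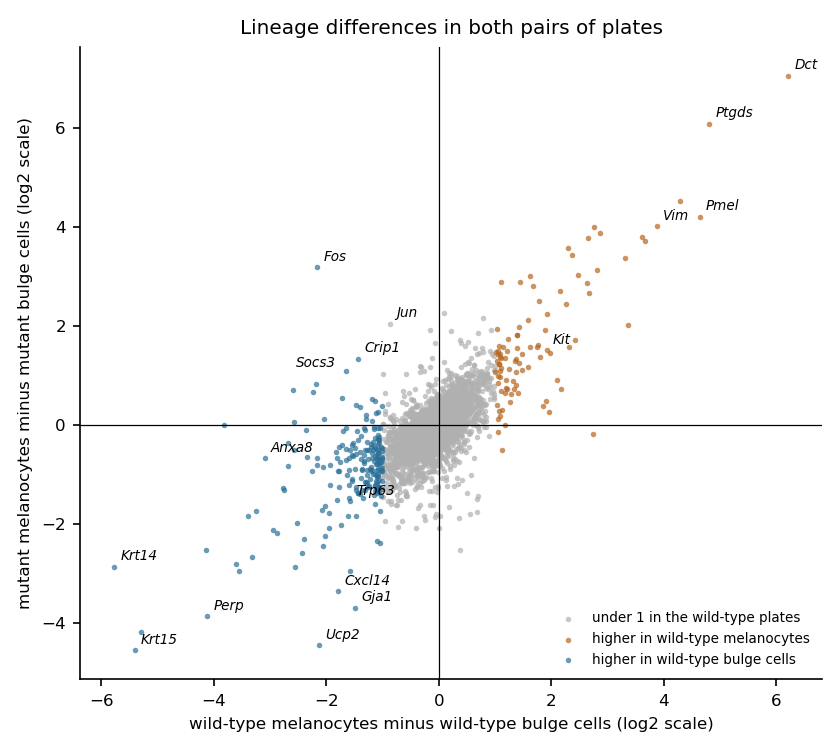
Difference of each gene between melanocytes and bulge cells in the WT plates (x axis) and in the mutant plates (y axis), both as differences of mean log2(scaled TPM + 1). Dct and Krt15 lie in the same quadrants in both pairs of plates, whereas Fos is at -2.16 in the WT plates and 3.19 in the mutant plates.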

How the data were processed

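Single cells were captured in microfluidic chambers, chambers with no cell or several cells were left out by the authors under the microscope, and full-length cDNA was sequenced. The authors deposited TPM per gene and cell, 1 table per plate, made with STAR (2.4.2 in the submitters' processing notes), mm10 (GRCm38) and RSEM, for which the methods name FPKM. No doublet caller was run. Read depth cannot be recovered from TPM and is unknown here. No 2 of the 437 labelled cells of the 5 plates used held the same values, and 1 column that matched no label was left out. Values of 40 symbols with several identifiers were averaged, giving 30957 symbols. TPM was scaled to 10000 per cell and transformed as log2(value + 1), which understates differences of low genes. Each population is 1 sample, so group means were compared without a test.

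Named were the 15 genes with the largest difference each way among those detected in 25% of the cells of either population, up to 6 members each way of each of 29 lists, lineage markers, members of described ligand and receptor pairs, and 8 abundant genes with a difference between -0.25 and 0.25. Mitochondrial, ribosomal, predicted and Y-linked genes, Xist and pseudogenes were left out of the first and last of these, and ribosomal protein genes were counted as a list of their own. The members and lists were chosen with earlier results of these data known. Of 834 listed genes 2 had no entry under their symbol, and some members counted in the lists are not reported here by name. Alternatives changed the limits on cells, the pseudocount, the scaling, the detection limits and the cells of another lineage, or matched cells within 200 genes above 0. The steps were tested on simulated data. Tools were SciPy 1.17.1, pandas 2.3.3, NumPy 2.4.6 and matplotlib 3.10.9 under Python 3.11.15.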

Additional observations from a re-analysis of the deposited data

Results flagged for a closer look

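Of the genes past a difference of 1 between WT melanocytes and WT bulge cells, 3 were past 1 in the opposite direction between the mutant populations. Fos differed by -2.16 in the WT plates and by 3.19 in the mutant plates. Socs3, an inhibitor of cytokine signalling, differed by -1.645 and 1.10, and was detected in 39.5% of WT melanocytes and 90.4% of WT bulge cells. Crip1, a small LIM domain protein, differed by -1.43 and 1.34, and was detected in 58% and 84.3%. In the WT cells matched on genes above 0 the differences were -1.66 for Fos, -0.56 for Socs3 and -1.58 for Crip1. Socs3 and Crip1 were chosen for this result after their values were seen. The difference between the pairs of plates was not tested, since each group is 1 plate.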

How the results depend on the processing

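The counts of genes past 1 were 94 higher in melanocytes and 205 higher in bulge cells. With a pseudocount of 0.1 they were 295 and 1401, with TPM as deposited 454 and 3809, and for log2 ratios of mean scaled TPM 201 were higher in melanocytes. Under the other alternatives, namely no limits on cells, 2000 to 7000 genes in both populations, matched cells, cells of their own lineage, cells with no marker of the other lineage (chosen after seeing the data), genes in at least 25% of cells and all genes detected, the counts were 82 to 129 and 139 to 225. Sorting the 17 ligand and receptor pairs by mean TPM in place of the share of cells (chosen after seeing the data) gave 10 in place of 3 with the ligand higher in bulge cells and the receptor in melanocytes, 4 in place of 12 with both higher in bulge cells, and 1 in place of 0 with the ligand higher in melanocytes and the receptor in bulge cells. List medians that changed sign are given beside the lists. In the matched cells Bhlhe41 (0.98), Gas6 (-0.94), Lamb3 (-0.72), Ldha (-0.98), Atp5e (-0.89), Gstm1 (0.91), Glul (0.85) and H2-Q7 (-0.67) were short of 1, besides those given above. Of 22 shares of cells 1 moved beyond its interval, that of Pmel in bulge cells, to 4.82% at TPM 10 or more. No paired analysis was possible because each population is 1 plate and no label pairs cells across plates. With 1 sample per group no replicate could be left out, and TPM does not show what depth limits.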

Other observations

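Markers of cell types outside both lineages were also counted. Any of the 6 Schwann cell markers was detected in 62 of 81 melanocytes, at a summed median of 333 TPM, and in 6 of 83 bulge cells, where 4 of the 6 were at 0 in every cell. Of the 8 myeloid markers, any was detected in 26 melanocytes and 42 bulge cells. Fibroblast markers were detected in 15 and 32 cells, T and NK cell markers in 3 and 3, endothelial markers in 3 and 4, mural cell markers in 1 and 0, and Merkel cell markers in 0 and 8. Markers of differentiating keratinocytes were detected in 16 and 67 cells, and the 7 bulge markers in 40 and 83. By the set with the highest mean level, 2 wells of the melanocyte plate were keratinocyte, 2 myeloid and 1 Schwann cell, and on the bulge plate 5 were differentiating keratinocyte, 1 melanocyte and 1 myeloid.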
